A study of Homo sapiens with 60 samples.

Results

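The plasma carrier proteins described here are 10 secreted proteins of the liver that transport hormones, vitamins, fatty acids and other small ligands in blood: albumin (ALB), alpha-fetoprotein (AFP), transthyretin (TTR), retinol-binding protein 4 (RBP4), thyroxine-binding globulin (SERPINA7), corticosteroid-binding globulin (SERPINA6), sex hormone-binding globulin (SHBG), fetuin-A (AHSG), the alpha-1-microglobulin and bikunin precursor (AMBP) and the vitamin D-binding protein (GC). They were taken by symbol and Ensembl identifier from a gene table of 60675 rows, in which all 10 had a row of their own. The table held 60 mRNA libraries of HepG2, a hepatocellular carcinoma cell line that keeps much of the secretory programme of hepatocytes, grown for 24 h with a water extract or with vehicle (0.1% DMSO in the sample labels, while the study's design text gives another concentration). Plant drugs used alone were the rhizome Cimicifugae Rhizoma, the aconite root Aconiti Lateralis Radix Preparata, the mandarin peel Citri Unshius Pericarpium and the root Bupleuri Radix. The other extracts were the herbal formulas Banhasasim-tang, Yijung-tang and Bojungikgi-tang. Doses were 20, 100 and 500 µg/mL of extract. A dose had 3 libraries, and so had vehicle; Bojungikgi-tang had 1 library at each dose and was left out of every test. The title codes put Citri with Cimicifugae, Bupleuri with Aconiti and Yijung-tang with Banhasasim-tang, and the 3 vehicle libraries carried a code of their own. A DMSO content was recorded for the vehicle libraries only. An extract, its set of libraries and any difference in DMSO therefore cannot be told apart in a comparison with vehicle. No source says that libraries of a group came from separate cultures, and the spread behind the p-values may therefore be technical.

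Albumin is the most abundant protein of plasma and carries fatty acids, bilirubin and many drugs. AFP is its fetal relative, silenced in adult liver and made again by many hepatocellular carcinomas. Thyroxine is bound with high affinity by SERPINA7 and with lower affinity by TTR and albumin, cortisol by SERPINA6, and testosterone and estradiol by SHBG. SERPINA7 and SERPINA6 have the serpin fold but inhibit no protease. RBP4 brings retinol from liver stores to tissues and circulates in complex with TTR, which keeps it from being filtered by the kidney. AHSG keeps calcium phosphate in solution in plasma and binds the insulin receptor; the AMBP precursor is cut into a lipocalin that scavenges heme and radicals and a protease inhibitor that joins the inter-alpha-inhibitor heavy chains. Transcription of many of these genes in liver rests on hepatocyte nuclear factors such as HNF1, HNF4A and the C/EBP family.

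The RefSeq promoter table (GRCh38.p14) held windows for 8 of the 10 genes, with TTR and GC unmatched. The 250 bases before the RefSeq start are shown for the genes that passed as lower in at least 4 of 6 extracts at 500 against 20 µg/mL (SERPINA7, SERPINA6 and RBP4, the last with 3 starts) or in at least 11 of 18 groups against vehicle (ALB and AFP besides SERPINA7), and for the pair that passed as higher in 4 extracts (AHSG, AMBP), 5′ to 3′ on the strand of the gene. Capitals mark GTTAAT on either strand, the letters of an HNF1 half-site:
ALB, chr4:73404037-73404286, plus strand: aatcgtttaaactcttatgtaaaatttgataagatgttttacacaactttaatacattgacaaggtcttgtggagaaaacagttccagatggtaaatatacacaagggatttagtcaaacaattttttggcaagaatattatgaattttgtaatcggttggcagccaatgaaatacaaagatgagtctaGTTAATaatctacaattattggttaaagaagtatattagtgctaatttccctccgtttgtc
AFP, chr4:73435971-73436220, plus strand: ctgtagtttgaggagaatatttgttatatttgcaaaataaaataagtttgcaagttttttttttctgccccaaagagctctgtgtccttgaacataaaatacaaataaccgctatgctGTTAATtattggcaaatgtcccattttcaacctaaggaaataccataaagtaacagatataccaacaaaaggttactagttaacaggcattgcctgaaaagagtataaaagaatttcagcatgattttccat
SERPINA7, chrX:106038728-106038977, minus strand: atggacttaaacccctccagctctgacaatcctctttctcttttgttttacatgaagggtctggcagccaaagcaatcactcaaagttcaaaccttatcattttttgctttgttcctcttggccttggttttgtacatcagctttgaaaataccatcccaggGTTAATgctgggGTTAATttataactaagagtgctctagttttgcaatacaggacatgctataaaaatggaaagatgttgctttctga
SERPINA6, chr14:94323337-94323586, minus strand: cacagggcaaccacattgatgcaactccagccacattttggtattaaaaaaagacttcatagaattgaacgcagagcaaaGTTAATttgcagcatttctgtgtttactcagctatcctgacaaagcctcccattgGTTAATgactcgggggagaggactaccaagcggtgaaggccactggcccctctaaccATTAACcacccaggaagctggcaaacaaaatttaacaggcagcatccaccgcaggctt
RBP4, chr10:93601745-93601994, minus strand: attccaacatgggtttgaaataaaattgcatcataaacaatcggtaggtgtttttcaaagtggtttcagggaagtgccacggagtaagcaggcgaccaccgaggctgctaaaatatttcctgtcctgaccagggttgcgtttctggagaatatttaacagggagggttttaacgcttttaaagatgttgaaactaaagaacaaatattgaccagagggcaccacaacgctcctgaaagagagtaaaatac
RBP4, chr10:93601236-93601485, minus strand: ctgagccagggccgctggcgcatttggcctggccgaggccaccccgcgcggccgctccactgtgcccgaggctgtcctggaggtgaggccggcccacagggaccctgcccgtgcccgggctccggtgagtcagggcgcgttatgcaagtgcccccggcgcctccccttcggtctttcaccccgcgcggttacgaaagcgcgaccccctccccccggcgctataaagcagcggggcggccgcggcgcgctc
RBP4, chr10:93601514-93601763, minus strand: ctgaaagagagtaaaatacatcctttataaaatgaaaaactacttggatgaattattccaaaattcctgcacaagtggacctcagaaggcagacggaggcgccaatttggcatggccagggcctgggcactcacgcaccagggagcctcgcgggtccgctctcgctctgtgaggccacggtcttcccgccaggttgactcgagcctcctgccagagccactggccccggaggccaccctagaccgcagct
AHSG, chr3:186612810-186613059, plus strand: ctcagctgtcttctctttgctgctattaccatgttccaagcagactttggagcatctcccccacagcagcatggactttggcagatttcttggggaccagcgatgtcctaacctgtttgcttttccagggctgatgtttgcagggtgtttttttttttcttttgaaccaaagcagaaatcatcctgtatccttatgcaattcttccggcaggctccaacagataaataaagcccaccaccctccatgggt
AMBP, chr9:114078301-114078550, minus strand: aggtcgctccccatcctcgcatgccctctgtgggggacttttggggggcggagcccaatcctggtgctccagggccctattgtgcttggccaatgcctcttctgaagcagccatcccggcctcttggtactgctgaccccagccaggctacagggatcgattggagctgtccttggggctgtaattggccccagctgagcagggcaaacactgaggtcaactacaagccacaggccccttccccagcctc

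GTTAAT occurred 3 times in the SERPINA6 window, 2 times in that of SERPINA7 and 1 time in those of ALB and AFP. It was in none of the 3 windows of RBP4, which also fell in 4 extracts, nor in those of AHSG, AMBP and SHBG, the last again with 3. In the same 250 bases of all 34943 promoter windows of the table, 6.24% held GTTAAT at least once and 0.424% at least 2 times. TATAAA was present in AFP, SERPINA7 and RBP4, against 10.8% of all windows. CCAAT was present 4 times in AMBP, 2 times in ALB and 1 time each in AFP, SERPINA6 and 1 RBP4 window, against 32% of all windows. In SERPINA6 a CCAAT on the opposite strand shared a base with a GTTAAT, and in AFP a CCAAT on the opposite strand followed just after it. These are matches of letters, and no binding was measured.

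Total estimated counts per library ran from 17598646 to 30451640, and 16093 genes had enough counts to be tested, 9 carriers among them. GC gave between 0 and 8 counts per library, with a median of 2, and was not tested. All 10 hepatocyte markers outside the carriers reached a median over all libraries of 1 CPM (counts scaled to library size, as edgeR's cpm gives them) or more. Their summed level was 30830 to 31490 CPM in vehicle. Of the marker lists of other cells, 2 of 7 fibroblast and stellate genes and 1 of 5 endothelial genes reached that median. So did 3 of 6 immune genes (CD68, CD14 and LYZ). The immune genes PTPRC and CD3E did not, but their vehicle means were 2.31 ± 4.00 and 1.84 ± 3.15 CPM (SD, n = 3). These vehicle counts came almost wholly from a single library, replicate 2. There they stood at 6.93 and 5.475 CPM, their highest values in any library. The summed immune list was 1320 to 1345 CPM in vehicle and 1036 to 3041 CPM over all libraries, and its part in the results was not tested. Most of that sum was LYZ, at 1289 ± 19.5 CPM (SD, n = 3) in vehicle and 985 to 2985 CPM over all libraries. Vehicle means of CD68 and CD14 were 32.8 and 2.06 CPM. Mitochondrially encoded genes took 8.68% ± 0.839 (SD, n = 3) of counts in vehicle, 18.1% ± 0.23 with Aconiti at 500 µg/mL and 14.6% ± 0.493 with Aconiti at 100 µg/mL. Without those genes in the table, 32 of the members' tests of 500 against 20 µg/mL passed, against 31 with them.

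Carrier levels in vehicle were highest for ALB and lowest for GC, which stood at 0.299, 0.137 and 0.269 CPM and reached at most 0.306 CPM in any library. Per kilobase of the longest transcript, ALB stood at 4369 ± 155 CPM (SD, n = 3), AFP at 1603 ± 35.8, AHSG at 1044 ± 26.3, AMBP at 527 ± 19.2 and RBP4 at 370 ± 11.2. SERPINA6 followed at 82.7 ± 0.786, TTR at 59.6 ± 4.67 and SERPINA7 at 53.0 ± 0.643 CPM per kilobase. SHBG was far lower at 3.87 ± 0.21 and GC at 0.119 ± 0.0438. The ranges of the 3 libraries did not meet between any neighbours of this order; they came closest for TTR and SERPINA7, at 55.1 to 64.4 and 52.3 to 53.6. Dividing by the median transcript length put SERPINA7 before SERPINA6 and TTR and left the other places as they were. Together the 10 genes took 1.77% ± 0.0465 of all counts in vehicle and 1.22% ± 0.04 with Aconiti at 500 µg/mL.

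**Figure D1:**
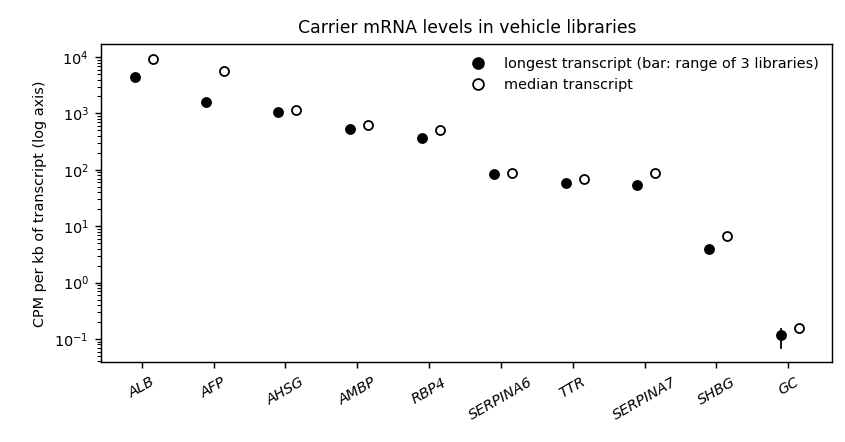
Level of each carrier mRNA in the vehicle libraries, as CPM per kilobase on a log axis; filled points are means of 3 libraries over the longest transcript with the range as a bar, open points use the median transcript length. ALB lies at 4369 CPM per kilobase and GC at 0.119.

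The first comparison asks whether the carriers follow the dose of an extract, with 500 set against 20 µg/mL inside each extract. A gene is said to have risen or fallen where edgeR's quasi-likelihood test, fitted across all tested genes and all 57 replicated libraries, gave a Benjamini-Hochberg adjusted p below 0.05. SERPINA7 fell in all 6 extracts, as did 14 of the 16093 genes tested (0.087%). SERPINA6 fell in 5 and rose in 1, RBP4 fell in 4, and AHSG and AMBP rose in 4 each. TTR rose in 2, SHBG and AFP fell in 2 each, and ALB fell in 1. How many of all tested genes moved in as many extracts as these carriers is not given here. The counts for carriers other than SERPINA7 therefore do not show whether they differ from other genes. Shares over all genes are given by extract below. No carrier other than SERPINA6 passed both ways in this fit. Some alternative settings, however, called TTR and AHSG lower with Citri, and ALB and RBP4 higher with Yijung-tang. In bulk libraries such as these, fewer cells that express a gene and less of its mRNA per cell cannot be told apart.

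**Figure D2:**
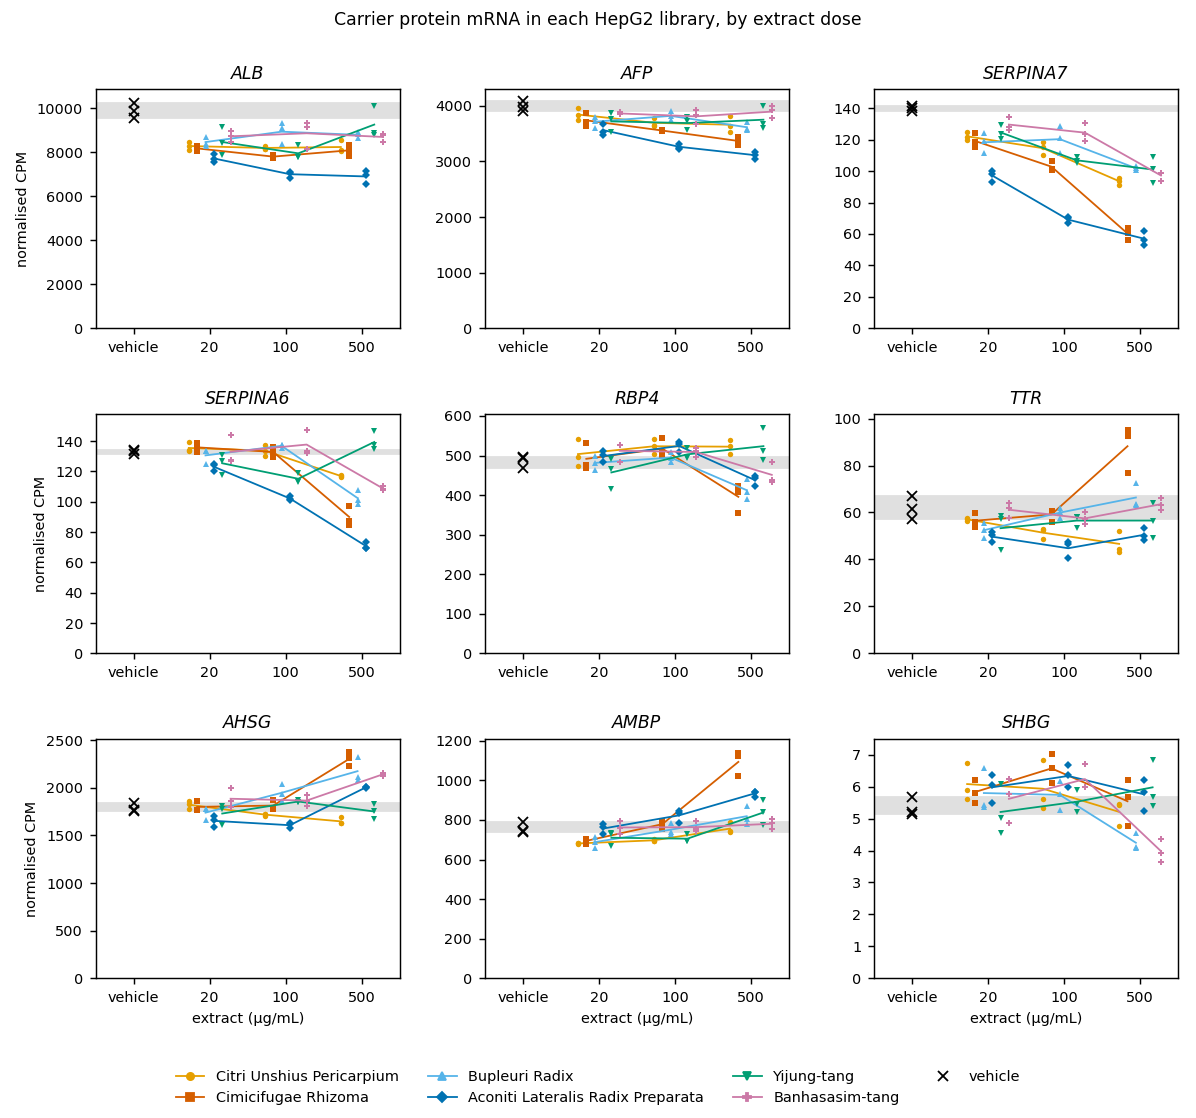
Normalised CPM of the 9 tested carriers in each library (points) with group means joined by lines, for vehicle (crosses, range shaded) and 20, 100 and 500 µg/mL of the 6 replicated extracts; axes start at 0. SERPINA7 lies below the vehicle range in every treated library, and TTR and AMBP are highest with Cimicifugae Rhizoma at 500 µg/mL.

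SERPINA7, the high-affinity carrier of thyroxine (chromosome X, 106032442 to 106038738, minus strand, GRCh38), was the only carrier that fell in every extract. Its change was the most negative among the carriers with Cimicifugae, Citri and Yijung-tang, while SERPINA6 lay lower with Aconiti and SHBG with Bupleuri and Banhasasim-tang; differences between genes were not tested. With Cimicifugae its level was 115, 118 and 124 CPM at 20 µg/mL and 64.1, 60.5 and 56.3 CPM at 500 µg/mL. The groups were far apart, and the change was −0.98 ± 0.0535 (log2 ± SE, adjusted p = 1.03e-20). With Aconiti the libraries read 92.9, 98.4 and 100.2 CPM at 20 µg/mL, 70.5, 69.9 and 66.9 at 100 µg/mL and 53.0, 61.9 and 55.9 at 500 µg/mL. The 3 doses did not overlap, and 500 against 20 µg/mL gave −0.77 ± 0.0534 (adjusted p = 5.15e-17). Banhasasim-tang took SERPINA7 from 126, 134.5 and 128 CPM to 94.0, 98.9 and 98.7 CPM (−0.41 ± 0.0505, adjusted p = 1.25e-08). Citri took it from 122, 125 and 120 CPM to 95.7, 93.5 and 91.4 CPM (−0.38 ± 0.0515, adjusted p = 1.66e-06). The falls were smallest with Yijung-tang (−0.30 ± 0.0506, adjusted p = 3.66e-05) and Bupleuri (−0.22 ± 0.0507, adjusted p = 0.00119), again with no overlap between the 2 doses. For Yijung-tang, fitting only the libraries compared left the size at −0.30 but ended the call (adjusted p = 0.0654). The unreplicated Bojungikgi-tang libraries stood at 129, 124 and 106 CPM for 20, 100 and 500 µg/mL.

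TTR, which carries the rest of thyroxine together with albumin and holds RBP4 in plasma (chromosome 18, 31557010 to 31599021, plus strand), did not follow SERPINA7. With Cimicifugae it was 53.8, 56 and 59.8 CPM at 20 µg/mL and 95.2, 92.7 and 76.8 CPM at 500 µg/mL. All 3 high-dose libraries lay above every library of any other group, and the change was 0.64 ± 0.0837 (adjusted p = 1.01e-08). Bupleuri raised TTR from 49.2, 52.5 and 55.7 CPM to 63.4, 63.0 and 72.7 CPM (0.34 ± 0.0835, adjusted p = 0.0018). Citri gave the opposite sign, from 57.1, 57.6 and 56.5 CPM to 52.2, 44.6 and 43.1 CPM, without passing the test (−0.29 ± 0.0869, adjusted p = 0.0745), although 5 alternative settings called it lower, among them the fit without replicate 1 at 500 µg/mL (adjusted p = 0.0252). In the other 3 extracts the change lay between 0.02 and 0.08 and did not pass.

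SERPINA6, the carrier of cortisol (chromosome 14, 94304248 to 94323394, minus strand), stood at 132, 134 and 134 CPM in vehicle. Aconiti brought it from 120, 124 and 125 CPM at 20 µg/mL to 69.8, 69.2 and 73.5 CPM at 500 µg/mL, with 104, 101 and 102 CPM in between. The 3 doses were fully separate, and 500 against 20 µg/mL gave −0.80 ± 0.0468 (adjusted p = 1.46e-19). Cimicifugae lowered it from 133, 139 and 136 CPM to 97.5, 87.6 and 85.0 CPM (−0.59 ± 0.0465, adjusted p = 3.91e-15). Bupleuri (−0.35 ± 0.0454, adjusted p = 3.52e-08), Banhasasim-tang (−0.29 ± 0.0451, adjusted p = 3.46e-06) and Citri (−0.21 ± 0.0456, adjusted p = 0.00386) followed. Yijung-tang moved it the other way, from 118, 131 and 127 CPM to 137, 146 and 135 CPM (0.15 ± 0.0448, adjusted p = 0.0412). That rise was lost when either replicate 1 or 3 at 20 µg/mL or replicate 1 or 2 at 500 µg/mL was left out, with adjusted p from 0.0697 to 0.346, and with only the libraries compared (adjusted p = 0.369).

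**Figure D3:**
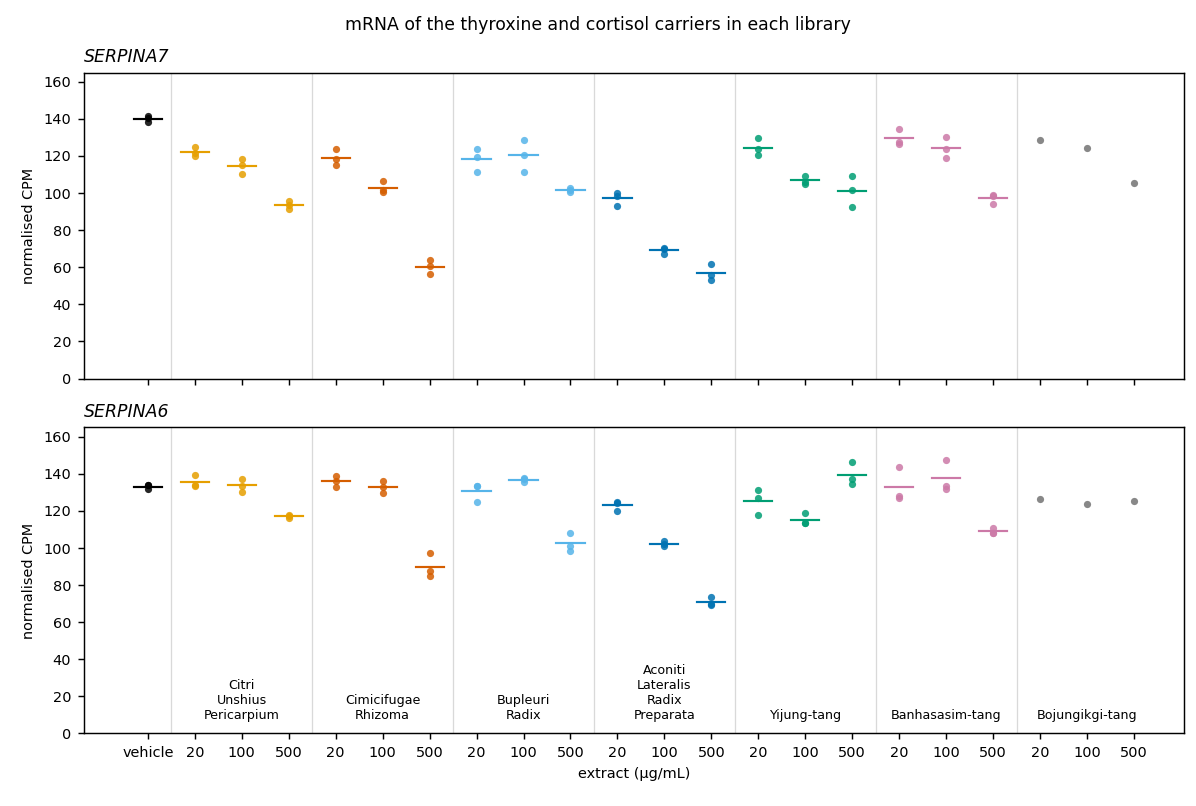
Normalised CPM of SERPINA7 (top) and SERPINA6 (bottom) in each of the 60 libraries, with group means as lines where a group has 3 libraries. Both genes are lowest with Aconiti Lateralis Radix Preparata at 500 µg/mL, at means of 57 and 70.8 CPM, and they part with Yijung-tang at 500 µg/mL.

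SHBG, the carrier of sex steroids (chromosome 17, 7613946 to 7633383, plus strand), was close to the limit of precise measurement, with 88 to 183 counts per library. Banhasasim-tang lowered it from 5.77, 6.24 and 4.85 CPM to 3.93, 3.65 and 4.36 CPM (−0.49 ± 0.115, adjusted p = 0.00154). Bupleuri lowered it from 5.43, 5.37 and 6.60 CPM to 4.08, 4.10 and 4.55 CPM (−0.45 ± 0.115, adjusted p = 0.00336), a call lost without replicate 3 at 20 µg/mL (−0.35, adjusted p = 0.0526). In both extracts the high-dose libraries lay below all low-dose libraries. The other 4 extracts did not pass, with changes from −0.22 to 0.20. The gene lies across FXR2 and SAT2, which are transcribed from the opposite strand at medians of 23.9 and 38.8 CPM; the kit marks strand, but the sources used here do not say whether counting used it, so reads of these neighbours may enter the SHBG counts.

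RBP4, the carrier of retinol (chromosome 10, 93591687 to 93601744, minus strand), fell in 4 extracts. With Cimicifugae it went from 468, 532 and 476 CPM to 424, 409 and 354 CPM, without overlap (−0.31 ± 0.0602, adjusted p = 2.84e-05). The falls with Bupleuri (−0.22 ± 0.0599, adjusted p = 0.00492), Aconiti (−0.19 ± 0.06, adjusted p = 0.0106) and Banhasasim-tang (−0.18 ± 0.0598, adjusted p = 0.03) were smaller. Each of these 3 hung on individual libraries: Bupleuri on replicate 1 at 500 µg/mL (adjusted p = 0.0506 without it), Aconiti on replicate 2 at 20 µg/mL and replicate 3 at 500 µg/mL (0.0521 and 0.0649), and Banhasasim-tang on replicates 2 and 3 at 20 µg/mL and 1 and 3 at 500 µg/mL (0.106 to 0.144), and the last was also lost with only the libraries compared (0.0553). Yijung-tang had the opposite sign and just missed the threshold (0.20 ± 0.0598, adjusted p = 0.0526). TTR and RBP4 proteins circulate as a complex, but only their mRNA was measured here. The RBP4 to TTR ratio of CPM, not scaled to transcript length, was 7.87 ± 0.453 (SD, n = 3) in vehicle. It was 8.72 ± 0.764 with Cimicifugae at 20 µg/mL and 4.49 ± 0.103 at 500 µg/mL. With Citri it moved from 8.82 ± 0.586 to 11.3 ± 0.796. Over the 3 libraries of each group, the 2 doses of these extracts did not overlap in this ratio. Nor did those of Bupleuri (mean 9.21 to 6.22), Aconiti (10.05 to 8.68) and Banhasasim-tang (8.37 to 7.12), where the ratio fell. With Yijung-tang the doses overlapped (8.64 to 9.33). How many other gene pairs separate in this way was not counted.

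AHSG (chromosome 3, 186612923 to 186621318, plus strand) and AMBP (chromosome 9, 114060127 to 114078472, minus strand) each rose in 4 extracts. Cimicifugae took AMBP from 679, 704 and 700 CPM to 1137, 1121 and 1022 CPM, the highest values of the study (0.65 ± 0.0468, adjusted p = 1.91e-16). AHSG went from 1769, 1862 and 1768 CPM to 2373, 2310 and 2227 CPM in the same libraries (0.36 ± 0.042, adjusted p = 8.68e-10). With Aconiti AMBP rose from 727, 763 and 780 CPM to 918, 942 and 944 CPM (0.30 ± 0.0466, adjusted p = 4.49e-07) and AHSG from 1593, 1707 and 1660 CPM to 1997, 2005 and 2013 CPM (0.28 ± 0.042, adjusted p = 3.34e-07). Bupleuri raised AHSG by 0.32 ± 0.0419 (adjusted p = 3.73e-08) and AMBP by 0.25 ± 0.0466 (adjusted p = 4.07e-05). With Citri AHSG had the opposite sign, from 1776, 1829 and 1864 CPM to 1689, 1628 and 1626 CPM, and did not pass. Several alternative settings called it lower, among them DESeq2 (−0.15, adjusted p = 0.0198) and the fit with the G+C trend removed (−0.15, adjusted p = 0.0175). With each formula only 1 gene of the pair passed, and AHSG was not tested against AMBP. The test of the interaction between the formulas passed for AMBP (adjusted p = 0.0324), a call lost under several settings. For AHSG it did not pass, although some settings called it. Banhasasim-tang raised AHSG (0.18 ± 0.0419, adjusted p = 0.0012) and gave 0.03 ± 0.0465 for AMBP (95% interval −0.06 to 0.13). Yijung-tang raised AMBP (0.24 ± 0.0466, adjusted p = 0.000543) and gave 0.02 ± 0.0419 for AHSG (95% interval −0.07 to 0.10); the AMBP rise was not called with only the libraries compared (adjusted p = 0.172). An antisense gene at the AHSG locus had a median of 0.123 CPM.

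ALB and AFP, neighbours on chromosome 4 (73397114 to 73421412 and 73431138 to 73456174, plus strand), moved little with dose. With Aconiti ALB was 7563, 7902 and 7688 CPM at 20 µg/mL and 6979, 7164 and 6558 CPM at 500 µg/mL (−0.16 ± 0.0471, adjusted p = 0.00505), a call lost without replicate 3 at 500 µg/mL (−0.12, adjusted p = 0.0693). AFP fell in the same libraries from 3532, 3676 and 3479 CPM to 3121, 3169 and 3045 CPM (−0.20 ± 0.0367, adjusted p = 2.06e-05). In these groups mitochondrially encoded genes took 10.3% and 18.1% of counts. Cimicifugae lowered AFP from 3702, 3877 and 3632 CPM to 3430, 3297 and 3374 CPM (−0.15 ± 0.0367, adjusted p = 0.000749) while ALB changed by −0.02 (95% interval −0.11 to 0.08). For ALB with Citri the interval was −0.10 to 0.09. Across all 60 libraries ALB ran from 6558 to 10250 CPM and AFP from 3045 to 4076 CPM. The AFP to ALB ratio of CPM was 0.403 ± 0.0113 (SD, n = 3) in vehicle and from 0.406 to 0.466 in the means of the treated groups.

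**Figure D4:**
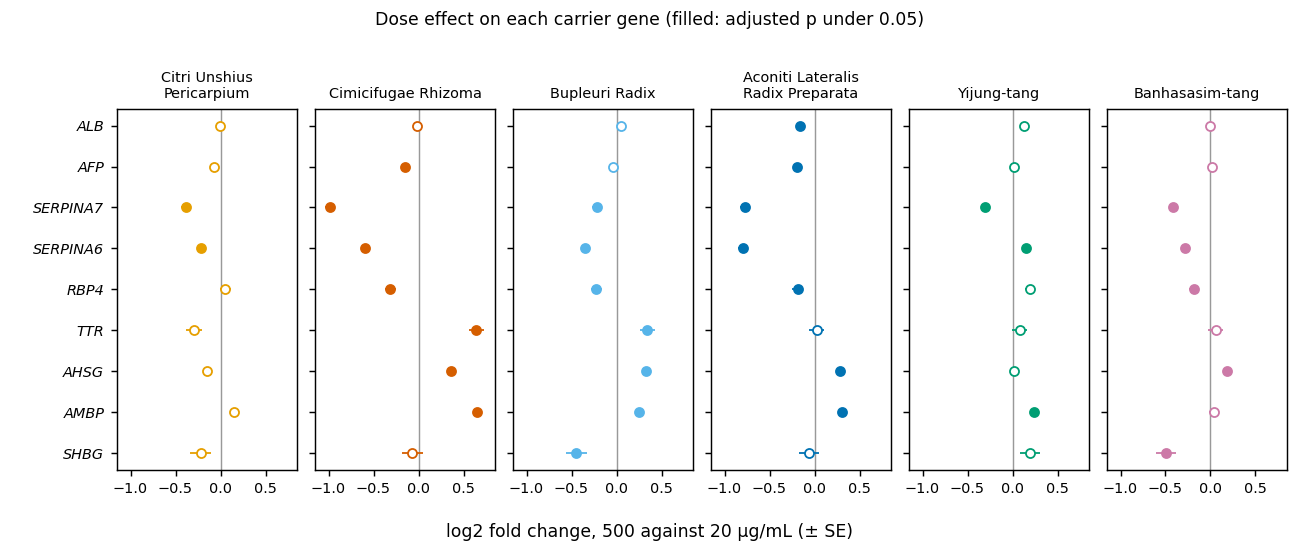
Log2 fold change of each tested carrier, 500 against 20 µg/mL, with its SE as a bar, in each of the 6 replicated extracts (n = 3 libraries per dose); filled points passed an adjusted p of 0.05. SERPINA7 lies left of 0 in every panel, and AHSG and AMBP lie right of 0 in every panel except AHSG with Citri Unshius Pericarpium.

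Read by extract, the number of carriers that passed has to be set against how much of the transcriptome moved. With Citri 2 of the 9 tested carriers passed, both lower, when 0.727% of all tested genes rose and 0.92% fell. With Yijung-tang 2 carriers rose and 1 fell, against 1.65% and 2.12% of all genes. With Banhasasim-tang 1 rose and 4 fell, against 8.59% and 6.52%, and with Bupleuri 3 rose and 4 fell, against 9.9% and 8.89%. With Aconiti 2 rose and 5 fell, against 19.2% and 18.1%, and with Cimicifugae 3 rose and 4 fell, against 19.5% and 19.7%. The median change of the 9 carriers was −0.15 with Citri, −0.07 with Cimicifugae, −0.04 with Bupleuri, −0.16 with Aconiti, 0.13 with Yijung-tang and −0.0049 with Banhasasim-tang, beside medians between 0.0012 and 0.0033 over all tested genes.

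At 100 against 20 µg/mL few carriers had moved. SERPINA7 fell with Aconiti (−0.49 ± 0.0521, adjusted p = 1.68e-09), Yijung-tang (−0.22 ± 0.0503, adjusted p = 0.011) and Cimicifugae (−0.21 ± 0.0512, adjusted p = 0.018). SERPINA6 (−0.27 ± 0.0455, adjusted p = 4.64e-05) and AFP (−0.13 ± 0.0367, adjusted p = 0.0276) fell with Aconiti. The other carriers did not pass in any extract at this dose. The share of all tested genes that fell was 2.57% with Aconiti, 0.528% with Cimicifugae, 0.534% with Yijung-tang, 0.0932% with Bupleuri, 0.0249% with Citri and 0.0124% with Banhasasim-tang. The SERPINA7 call with Cimicifugae was lost without replicate 2 or 3 at either dose (adjusted p from 0.0594 to 0.149), that with Yijung-tang without replicate 1 at 100 µg/mL or 2 at 20 µg/mL (0.0792 and 0.0889) or with only the libraries compared (0.0674), and that of AFP without replicate 1 or 3 at 100 µg/mL or 1 or 2 at 20 µg/mL (0.0609 to 0.166), with only the libraries compared (0.0544) and with no filter on low counts (0.121).

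Extracts of the same set were then compared directly at 500 µg/mL. Cimicifugae against Citri was higher for TTR (0.92 ± 0.0851, adjusted p = 7.38e-13), AMBP (0.53 ± 0.0467, adjusted p = 1.63e-13) and AHSG (0.48 ± 0.042, adjusted p = 1.17e-13), and lower for SERPINA7 (−0.63 ± 0.0541, adjusted p = 6.86e-14), RBP4 (−0.40 ± 0.0602, adjusted p = 2.69e-07), SERPINA6 (−0.38 ± 0.0467, adjusted p = 2.85e-09) and AFP (−0.12 ± 0.0367, adjusted p = 0.00661). These are 7 of 9 carriers, when 41.8% of all genes passed; ALB differed by −0.03 (95% interval −0.12 to 0.07) and SHBG by 0.09 (−0.15 to 0.33). The AFP call was lost without Citri replicate 1 at 500 µg/mL (adjusted p = 0.0728) and with only the libraries compared (0.0516).

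Aconiti against Bupleuri passed for 8 of 9 carriers (23.5% of all genes), with SERPINA7 at −0.84 ± 0.0533, SERPINA6 at −0.53 ± 0.0471, TTR at −0.39 ± 0.0846, ALB at −0.35 ± 0.0472, AFP at −0.22 ± 0.0367 and AHSG at −0.12 ± 0.0419, and with SHBG and AMBP higher by 0.44 ± 0.117 and 0.19 ± 0.0466. Their adjusted p-values ran from 8.82e-18 for SERPINA7 to 0.0349 for AHSG, and the AHSG call was lost without Bupleuri replicate 3 (−0.06, adjusted p = 0.365) or any of the 3 Aconiti libraries (0.0753 to 0.11), with only the libraries compared (0.0882) and with no filter on low counts (0.0526). RBP4 differed by 0.09 (95% interval −0.04 to 0.21).

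Banhasasim-tang against Yijung-tang passed for 4 of 9 carriers (14.9% of all genes): AHSG was higher (0.29 ± 0.0419, adjusted p = 5.2e-07), and SHBG (−0.58 ± 0.115, adjusted p = 0.000138), SERPINA6 (−0.36 ± 0.0451, adjusted p = 2.43e-08) and RBP4 (−0.21 ± 0.0598, adjusted p = 0.00824) were lower. The RBP4 call was lost without Banhasasim-tang replicate 1 (adjusted p = 0.06) or Yijung-tang replicate 2 (0.122) and with only the libraries compared (0.0659). The other 5 carriers did not pass between these formulas: SERPINA7 differed by −0.05 (95% interval, not adjusted over genes, −0.16 to 0.05), TTR by 0.17 (0.0031 to 0.34), AFP by 0.05 (−0.02 to 0.13), ALB by −0.09 (−0.18 to 0.0046) and AMBP by −0.10 (−0.20 to −0.0082). The effect of 500 against 20 µg/mL itself differed between the extracts of a set for 6, 4 and 4 of 9 carriers in these pairs, when it did for 28.2%, 10.2% and 12.1% of all genes.

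Against vehicle the 18 tests of a gene share the same 3 control libraries, so their counts are not independent. Vehicle replicate 2 is the library that held the PTPRC and CD3E counts. Without it, 76 of the carriers' tests against vehicle passed, against 80 with it. Levels of SERPINA7 were 138, 142 and 140 CPM in vehicle and 53.0 to 134.5 CPM in the 57 treated libraries, all of which lay below the lowest vehicle library. It passed as lower in 17 of 18 groups, the exception being Banhasasim-tang at 20 µg/mL (−0.11 ± 0.0501, adjusted p = 0.0868), and at 500 µg/mL its change ran from −0.46 ± 0.0508 with Bupleuri to −1.30 ± 0.0531 with Aconiti. ALB was 9550, 9859 and 10250 CPM in vehicle, and 56 of 57 treated libraries lay below the lowest of these. It too passed as lower in 17 of 18 groups, from −0.15 ± 0.0471 with Bupleuri at 100 µg/mL to −0.52 ± 0.0472 with Aconiti at 500 µg/mL, with Yijung-tang at 500 µg/mL as the exception (−0.10 ± 0.0471, adjusted p = 0.118). AFP passed as lower in 11 of 18 groups, down to −0.36 ± 0.0367 with Aconiti at 500 µg/mL. How many of all tested genes were lower in as many groups or libraries is not given here. These counts therefore do not show whether the carriers differ from other genes. Shares over all genes follow by group and in either direction.

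SERPINA6 was lower in 7 groups and TTR lower in 6 and higher in 1 (Cimicifugae at 500 µg/mL, 0.51 ± 0.0834, adjusted p = 1.25e-06). AHSG was higher in 5 and lower in 3, AMBP higher in 5 and lower in 2, RBP4 lower in 3, and SHBG lower in 2 and higher in 1. At 500 µg/mL the share of all tested genes that passed against vehicle was 22.5% with Citri, 45.8% with Cimicifugae, 35.7% with Bupleuri, 47.4% with Aconiti, 32.6% with Yijung-tang and 34.7% with Banhasasim-tang. At 100 µg/mL the shares were 22%, 29.5%, 26.3%, 37.5%, 33.3% and 29.7% in the same order, and at 20 µg/mL 19.3%, 19%, 21.9%, 31.2%, 27.2% and 28.4%. The carriers that passed at 500 µg/mL were 6, 8, 8, 8, 2 and 5 of 9, in the same order of extracts.

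Ranked over the 19 replicated groups, vehicle had the highest mean of ALB (9886 CPM), AFP (3983 CPM) and SERPINA7 (140 CPM), and Aconiti at 500 µg/mL the lowest (6901, 3111 and 57 CPM). SERPINA6 was highest with Yijung-tang at 500 µg/mL (139.5 CPM) and lowest with Aconiti at 500 µg/mL (70.8 CPM). Cimicifugae at 500 µg/mL had the highest means of TTR (88.2 CPM), AHSG (2303 CPM) and AMBP (1093 CPM) and the lowest of RBP4 (395.6 CPM). SHBG was lowest with Banhasasim-tang at 500 µg/mL (3.98 CPM). Most groups next to each other in these orders had overlapping libraries: 18 of 18 neighbouring pairs for RBP4 and SHBG, 17 for ALB, TTR and AHSG, 16 for AFP and AMBP, and 14 for SERPINA7 and SERPINA6. The gap between vehicle and the next group was free of overlap for SERPINA7, and that between Cimicifugae at 500 µg/mL and the next group for TTR and AMBP.

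ALB, AFP and SERPINA7 have low G+C content (41.5%, 40.4% and 42.8%). As an alternative, the trend over G+C content of each library's log2 CPM, taken as deviations from gene means over the libraries, was removed before testing. With this trend removed, 7 of the 17 ALB calls, 8 of the 11 AFP calls and 5 of the 17 SERPINA7 calls against vehicle were lost, and AFP changed sign in 3 of its 11. So were 3 of 7 AMBP calls, 2 of 7 TTR calls, 1 of 8 AHSG calls and 1 of 3 SHBG calls, while the 7 SERPINA6 and 3 RBP4 calls passed with the trend removed. All 31 carrier calls of 500 against 20 µg/mL passed with the trend removed, as did the SERPINA7 calls at 500 µg/mL against vehicle. ALB kept its call in all Citri, Cimicifugae and Aconiti groups and with Yijung-tang at 100 µg/mL.

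**Figure D5:**
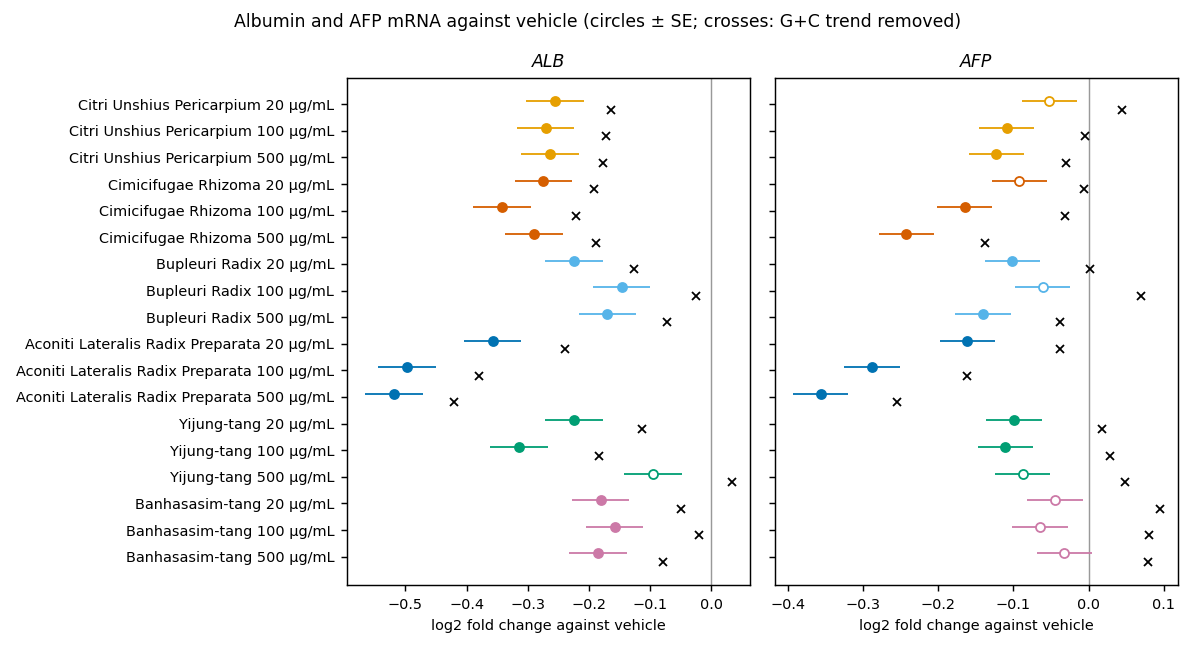
Log2 fold change of ALB and AFP against vehicle for 3 doses of 6 extracts: circles with SE bars are the fit as reported (filled: adjusted p under 0.05), crosses the values with the trend over G+C content removed. Crosses lie to the right of the circles in every group, and for AFP many of them reach 0 or beyond.

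Other gene lists give the setting of these changes, by count of tested genes that passed at 500 against 20 µg/mL. Of all tested genes, 19.5% rose and 19.7% fell with Cimicifugae, 19.2% and 18.1% with Aconiti, 9.9% and 8.89% with Bupleuri, 8.59% and 6.52% with Banhasasim-tang, 1.65% and 2.12% with Yijung-tang and 0.727% and 0.92% with Citri, and list counts are to be read beside these shares. In the albumin gene cluster (ALB, AFP, afamin AFM and GC), AFM, a vitamin E-binding relative of albumin, was at 0.84 ± 0.215 CPM in vehicle and fell with Cimicifugae (−0.94 ± 0.248, adjusted p = 0.0103). In the SERPINA cluster on chromosome 14, 8 of 10 genes were tested and 5 fell with Citri, 4 with Cimicifugae, 4 with Aconiti, 4 with Banhasasim-tang and 1 each with Bupleuri and Yijung-tang, while 1 rose with each of Cimicifugae, Bupleuri and Yijung-tang. SERPINA4, the protease inhibitor kallistatin, fell by 1.00 ± 0.0807 on the log2 scale with Aconiti. SERPINA3, the acute phase inhibitor antichymotrypsin, rose with Cimicifugae (0.56 ± 0.0784) and Bupleuri (0.49 ± 0.0758). It fell with Citri (−0.42 ± 0.0812) and Yijung-tang (−0.40 ± 0.0785). With Cimicifugae, Bupleuri and Yijung-tang, genes of this cluster thus passed in both directions. Among 15 tested genes for other plasma binding proteins, 5 rose and 5 fell with Cimicifugae, 5 rose and 7 fell with Aconiti, 4 rose and 3 fell with Bupleuri, 3 rose and 3 fell with Banhasasim-tang, 3 fell with Citri and 1 fell with Yijung-tang. IGFBP1, which binds insulin-like growth factors, rose by 4.15 ± 0.101 with Aconiti and 3.45 ± 0.0984 with Cimicifugae, and haptoglobin (HP) fell in the same extracts (−1.53 ± 0.0469 and −1.13 ± 0.0461). Ceruloplasmin (CP) rose with Banhasasim-tang (1.12 ± 0.0569). ITIH3, a heavy chain that pairs with the bikunin part of AMBP, rose with Cimicifugae (0.66 ± 0.0394), Aconiti (0.41 ± 0.0398) and Bupleuri (0.32 ± 0.0393) and fell with Citri (−0.24 ± 0.0406) and Yijung-tang (−0.15 ± 0.0396). The adjusted p-values of the genes named in this paragraph were at most 0.0179.

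Genes that act on the same ligands were counted in the same way; of all tested genes 18.1% fell with Aconiti, 19.7% with Cimicifugae, 8.89% with Bupleuri and 6.52% with Banhasasim-tang. Of 5 tested thyroid hormone genes, all 5 fell with Aconiti, 4 with Cimicifugae, 3 with Bupleuri and 2 with Banhasasim-tang, and 1 rose, with Yijung-tang; DIO1, the deiodinase that activates thyroxine, fell by 1.30 ± 0.0489 on the log2 scale with Aconiti and rose with Yijung-tang (0.32 ± 0.0436). Of 12 tested steroid hormone genes, 7 fell and 2 rose with Cimicifugae, 7 fell with Bupleuri, 5 fell with Aconiti, 5 fell and 1 rose with Banhasasim-tang, 1 fell with Citri and 1 rose with Yijung-tang; HSD11B2, which inactivates cortisol, fell by 1.27 ± 0.0876 with Aconiti and rose with Yijung-tang (0.33 ± 0.0757), and the glucocorticoid receptor NR3C1 fell with Bupleuri (−0.43 ± 0.0486). Of 11 tested vitamin A genes, 2 rose and 3 fell with Cimicifugae, close to the shares over all genes, among them the retinol dehydrogenase RDH10 (0.53 ± 0.0453) and the retinoid X receptor RXRA (−0.44 ± 0.054). Of 7 tested vitamin D genes, 3 fell and 1 rose with Cimicifugae, where the catabolic enzyme CYP24A1 gave −0.85 ± 0.0603. Of 25 hepatocyte transcription factors, 15 fell and 3 rose with Cimicifugae, 16 fell and 4 rose with Aconiti, 12 fell with Bupleuri, 8 with Banhasasim-tang and 1 with Citri, and none passed with Yijung-tang. The pioneer factor FOXA1 fell with Aconiti (−0.86 ± 0.0392) and Cimicifugae (−0.70 ± 0.0398), the bile acid receptor NR1H4 fell with both (−1.76 ± 0.0606 and −1.83 ± 0.0622), and CEBPA fell with Cimicifugae (−1.78 ± 0.107). All genes named in this paragraph had adjusted p-values of at most 9.63e-07 except HSD11B2 with Yijung-tang (0.00438). Median changes of this factor list were −0.25 with Cimicifugae and −0.24 with Aconiti, beside 0.0033 and 0.0012 over all tested genes.

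Correlations of log2 levels over the 19 group means are described here without a test, because groups share extracts, sets and controls. SERPINA7 and SERPINA6 had a Pearson r of 0.88, SERPINA7 and AFP 0.90, and ALB and AFP 0.86. AHSG and TTR had r = 0.84, whereas AMBP and SERPINA7 had r = −0.81 and RBP4 and AHSG −0.81. These relations did not always follow shared ligands: the thyroxine carriers SERPINA7 and TTR had r = −0.047, and TTR and RBP4, which circulate together, had r = −0.65. Albumin, which also binds thyroxine, had r = 0.71 with SERPINA7 and 0.41 with TTR. Of 10180 protein-coding genes with a mean of at least 5 CPM, the closest to SERPINA7 were complement C5 (r = 0.974), hemopexin HPX (0.967) and the collagen gene COL4A5 (0.953). The closest to SERPINA6 were the sugar transporter gene SLC5A9 (0.980), apolipoprotein APOC3 (0.979) and haptoglobin-related HPR (0.976), of which HPR is a near copy of HP whose reads may be shared. For AMBP they were PSAP, ETFB and ANKS4B (0.943 to 0.908), for AHSG DEPP1, CREB3 and P4HA2 (0.942 to 0.930), and for RBP4 GDPD3, ANP32B and DCXR (0.943 to 0.925). TTR was closest to RABAC1, ANGPTL1 and SLC38A11 (0.907 to 0.884), AFP to RAE1, TUBD1 and CPB2 (0.921 to 0.905), ALB to GNPAT, TWSG1 and WDR37 (0.865 to 0.861) and SHBG to SLC16A13, MAOB and CYP19A1 (0.832 to 0.772).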

How the data were processed

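HepG2 mRNA libraries were read from 1 table of expected counts per Ensembl gene. The authors deposited these estimated counts, made with FastQC 0.11.9, Trim Galore 0.6.5, STAR 2.7.3a and RSEM 1.3.3 on GRCh38 per the submitters' processing notes; the annotation release and use of strand are not given in the sources used here, and 207 columns of other samples were not used. Identifiers were named from GENCODE 29 (57055 of 60675; the rest hold 0.0398% of counts). Counts were rounded, filtered with filterByExpr, scaled by TMM and tested with edgeR 4.0.16 (R 4.3.3; estimateDisp, glmQLFit, glmQLFTest) in 1 model of 19 groups and 57 libraries, with Benjamini-Hochberg adjustment over 16093 genes in each of 36 comparisons; the biological coefficient of variation was 4.86%. CPM are TMM-normalised. The fit was tested on simulated data. The members and lists were chosen with earlier results of these data known. In text, the 9 tested carriers are given in each comparison by value, range or count, and GC by its level; from any other list at most 3 called genes with the smallest p; and the 3 genes most like each carrier. Alternatives were other scaling, filters, DESeq2 1.42.0, replicate blocks, fewer libraries, no mitochondrial genes and a G+C correction. Counting error depends on depth, 17598646 to 30451640 per library.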

Additional observations from a re-analysis of the deposited data

Results flagged for a closer look

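The effect of 500 against 20 µg/mL differed between extracts of the same set for 14 of the carriers' tests, by edgeR's quasi-likelihood test of the interaction with Benjamini-Hochberg adjustment; 28.2%, 10.2% and 12.1% of all genes passed in the 3 pairs of extracts. For Cimicifugae minus Citri, the dose effect was more positive for TTR (0.94 ± 0.121, log2 ± SE, adjusted p = 1.86e-08), AHSG (0.50 ± 0.0594, adjusted p = 2.18e-09) and AMBP (0.50 ± 0.066, adjusted p = 2.78e-08). It was more negative for SERPINA7 (−0.60 ± 0.0742, adjusted p = 8.4e-09), SERPINA6 (−0.38 ± 0.065, adjusted p = 6.45e-06) and RBP4 (−0.37 ± 0.085, adjusted p = 0.00067). For Aconiti minus Bupleuri, it was more negative for SERPINA7 (−0.56 ± 0.0736, adjusted p = 1.41e-07), SERPINA6 (−0.45 ± 0.0651, adjusted p = 1.07e-06), ALB (−0.22 ± 0.0666, adjusted p = 0.0268) and AFP (−0.16 ± 0.0518, adjusted p = 0.0429). Mitochondrially encoded genes took 18.1% of counts with Aconiti at 500 µg/mL and 11.3% with Bupleuri. With those genes left out of the table all 4 of these differences passed and had the same size to 2 decimals.

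For Banhasasim-tang minus Yijung-tang, the dose effect was more negative for SHBG (−0.69 ± 0.16, adjusted p = 0.00183), SERPINA6 (−0.44 ± 0.0636, adjusted p = 9.9e-07), RBP4 (−0.38 ± 0.0845, adjusted p = 0.00123) and AMBP (−0.20 ± 0.0659, adjusted p = 0.0324). Of these differences, that of ALB was lost without any 1 of Bupleuri replicates 1 or 3 at either dose, Aconiti replicates 2 or 3 at 20 µg/mL or Aconiti replicate 3 at 500 µg/mL (adjusted p from 0.051 to 0.11). That of AFP was lost without any 1 of 8 libraries (0.0707 to 0.152), and also with no filter on low counts (0.14), with a mean of at least 1 CPM (0.0509) and with only the libraries compared (0.0615). That of AMBP for the formulas was lost without any 1 of 5 libraries (0.0501 to 0.158), with only the libraries compared (0.18) and with the G+C trend removed (0.0515).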

How the results depend on the processing

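Of the carriers' tests, 31 passed for 500 against 20 µg/mL (28 to 36 under other settings), 5 for 100 against 20 µg/mL, 80 against vehicle (60 with the G+C trend removed to 88), 19 between extracts (16 to 19) and 14 for differences of the dose effect (13 to 16). For 100 against 20 µg/mL DESeq2 gave 8. With a replicate block over all libraries the counts were 33, 7, 84, 19 and 15, and with the block within sets 36, 8, 88, 19 and 16. Within a set, deviations from group means had a median r of 0.0919 for same-numbered libraries (62 of 135 pairs above 0.1) and −0.0455 for others (21 of 270), and 42 of 54 libraries correlated best with their own number, a hint from the data of a shared replicate effect; no source pairs the numbers and not every pair passed 0.1, so the block is an alternative only. Leaving out 1 library in turn gave 29 to 32, 4 to 5, 65 (without vehicle replicate 3) to 82, 18 to 20 and 12 to 15; comparisons that do not use the library left out stayed as in the full fit. With the G+C trend removed AFP against vehicle turned to 0.029 with Yijung-tang at 100 µg/mL, 0.017 with Yijung-tang at 20 µg/mL and 0.0013 with Bupleuri at 20 µg/mL; the cause was not tested. Over all genes, 500 against 20 µg/mL called 265 with Citri (163 to 423 elsewhere), 607 with Yijung-tang (135 to 923) and 2433 with Banhasasim-tang (1451 with only the libraries compared). Depth limits SHBG and leaves GC untested.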
